A study of Rattus norvegicus with 32 samples.

Results

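The dystrophin-associated glycoprotein complex was followed here through 8 of its genes in rat tibialis anterior after volumetric muscle loss (VML): Dmd, Utrn, Dag1, Sgca, Sgcb, Sgcd, Sntb1 and Sspn. These 8 members are those of the 16405 genes in the deposited table whose RefSeq transcript carries one of these symbols. The list was set with earlier results of these data known, although the matching by symbol itself uses no measured value. All 8 had at least 1 row of the table with counts, none was without a row, and none averaged below a log2 CPM (counts scaled to a common library size) of 0.

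RNA sequencing compared muscle of 4 injured groups with uninjured muscle at 3 and at 14 days post injury (DPI), with 3 libraries in each injured group and 4 uninjured libraries at each day, 32 in all. The rats' strain is labelled HSD, and the study's methods call them Sprague Dawley. Their age is not given in the sources used here. In every injured rat a punch removed part of the middle of the muscle, and the defect was left unrepaired (VML) or filled with minced muscle cut from the same rat (MM), with a decellularized skeletal muscle scaffold from cadaveric rats (DSM), or with scaffold and mince together (DSM+MM). The number after a group name gives the day, as in MM3. Uninjured muscle came from the opposite leg, so an uninjured library can share a rat with an injured library, and the tests treated them as independent. All rats received the same analgesics, and force was measured under nerve stimulation in both legs before tissue was taken. The sequenced punch crossed the border of the defect, so surviving fibres, graft, scaffold, scar and infiltrating cells were measured together. In such bulk tissue, fewer cells of a type and less RNA per cell cannot be told apart.

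Dystrophin is a long rod beneath the fibre membrane that ties the actin cytoskeleton to dystroglycan, and through it to laminin in the basement membrane, so that the force of contraction does not tear the membrane. Sarcoglycans and sarcospan form a subcomplex in the membrane that steadies this link, and syntrophins hang signalling proteins such as neuronal nitric oxide synthase on it. Utrophin is the paralog of dystrophin, is concentrated at the neuromuscular junction in adult fibres and spreads along the membrane in developing and regenerating ones. Loss of dystrophin or of a sarcoglycan causes muscular dystrophy.

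Across the 8 comparisons with uninjured muscle of the same day, the members that passed the test were sarcoglycans and sarcospan, each with a lower level. Sgca fell in MM3 and DSM3, Sgcb fell in MM3 and DSM+MM3, Sspn fell in MM3 and Sgcd fell in DSM+MM14, all to between 0.416 and 0.491 of the uninjured level, although, set against markers of mature fibres, the falls of MM3 and DSM3 turned positive and those of DSM+MM3 and DSM+MM14 shrank to -0.14 and -0.38 on the log2 scale. Dmd, Utrn, Dag1 and Sntb1 passed the test in none of the 8 comparisons. Even so, the estimates of Dmd in DSM+MM3 (-1.23) and of Sntb1 in VML14 (-1.12) were as low as some that passed. Those of Utrn and Dag1 stayed between -0.28 and 0.41. Members were not tested against each other. At the threshold used throughout, an adjusted p under 0.05 in the edgeR F-test as deposited, no member was higher in any injured group. Only group comparisons were deposited and no library's own value, so the spread between rats enters through the standard error (SE) alone, which was worked out from the F statistic.

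The members called lower at 3 DPI, Sgca, Sgcb and Sspn, are shown with the sequence around their annotated starts. They were picked by these same values and share a call only in MM3, and whether they move together was not tested. Dmd is shown with its pair of distant starts, since the table lists several Dmd transcripts. RefSeq windows of build GRCr8, each running from 250 bases before to 50 bases after a start, were matched for 6 of the 8 members, 8 windows in all. Dag1 and Sntb1 had no window. The windows lie at chr10:80416026-80416325 on the minus strand for Sgca, chr14:34917413-34917712 on the plus strand for Sgcb and chr4:180627632-180627931 on the plus strand for Sspn, and those of Dmd lie on the plus strand at chrX:51205836-51206135 for the upstream start and chrX:53278763-53279062 for the downstream start. Capitals mark matches on either strand to any of 4 motifs of 6 letters: the E-box CANNTG that MyoD and myogenin bind, the N-box TTCCGG with an ETS core, the GC box GGGCGG and the MCAT element CATTCC. No 2 marked matches overlap.
Sgca: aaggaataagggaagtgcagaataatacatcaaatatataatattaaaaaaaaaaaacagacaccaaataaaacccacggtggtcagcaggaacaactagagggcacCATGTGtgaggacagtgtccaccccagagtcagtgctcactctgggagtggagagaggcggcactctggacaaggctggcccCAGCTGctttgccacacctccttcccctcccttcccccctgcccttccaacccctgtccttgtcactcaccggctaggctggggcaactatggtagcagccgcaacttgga
Sgcb: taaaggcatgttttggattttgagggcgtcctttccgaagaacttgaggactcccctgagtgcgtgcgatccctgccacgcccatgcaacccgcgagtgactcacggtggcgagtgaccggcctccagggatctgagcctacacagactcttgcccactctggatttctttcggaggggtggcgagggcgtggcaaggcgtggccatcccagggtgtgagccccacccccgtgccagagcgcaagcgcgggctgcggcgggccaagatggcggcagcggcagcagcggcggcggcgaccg
Sspn: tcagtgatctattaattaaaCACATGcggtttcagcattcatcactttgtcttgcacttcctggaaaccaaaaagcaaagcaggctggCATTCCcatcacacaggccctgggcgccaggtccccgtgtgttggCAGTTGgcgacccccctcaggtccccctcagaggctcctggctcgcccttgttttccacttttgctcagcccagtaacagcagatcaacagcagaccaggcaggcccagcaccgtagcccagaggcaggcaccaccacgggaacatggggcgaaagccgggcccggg
Dmd upstream start: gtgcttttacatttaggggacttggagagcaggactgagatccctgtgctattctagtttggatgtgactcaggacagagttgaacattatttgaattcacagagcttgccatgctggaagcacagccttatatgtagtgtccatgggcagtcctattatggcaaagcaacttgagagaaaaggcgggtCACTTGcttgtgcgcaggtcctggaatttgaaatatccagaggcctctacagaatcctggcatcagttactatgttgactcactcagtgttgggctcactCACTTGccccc
Dmd downstream start: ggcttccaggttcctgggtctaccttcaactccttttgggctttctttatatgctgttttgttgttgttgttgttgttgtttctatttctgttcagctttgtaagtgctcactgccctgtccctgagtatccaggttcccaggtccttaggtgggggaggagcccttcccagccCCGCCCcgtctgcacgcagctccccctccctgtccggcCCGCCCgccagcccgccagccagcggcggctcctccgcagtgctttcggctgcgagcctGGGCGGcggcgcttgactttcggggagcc

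The window of Sgca held 2 E-boxes, and that of Sspn held 2 E-boxes and 1 MCAT element. Sgcb, which fell in the same MM3 comparison, held none of the 4 motifs, and its window had a GC content of 66.0% against 52.3% for Sgca and 58.3% for Sspn. The Sgcd window had 1 E-box and that of Utrn 1 MCAT element and no E-box. At Dmd, the upstream window held 2 E-boxes and no GC box at a GC content of 47.3%, and the downstream window, 2072927 bases away, held 3 GC boxes and no E-box at 61.3%. The third Dmd start lies 31 bases further on, and its window shares the same 3 GC boxes. Of all 33469 rat windows, 72.1% held an E-box, 33.1% a GC box, 15% an N-box and 14.2% an MCAT element, and their median GC content was 51.7%. The E-box is thus present in most windows, and these matches describe letters in a window and not bound sites.

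**Figure D1:**
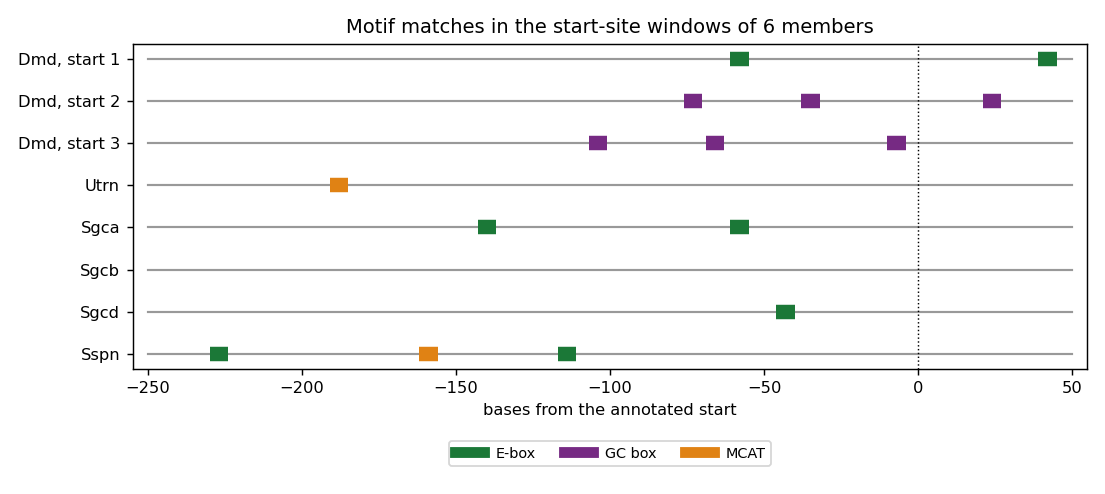
Position of motif matches in the 8 start-site windows of 6 members, with the distance in bases from the annotated start on the horizontal axis and 1 line per window. E-boxes lie in the windows of Sgca, Sgcd, Sspn and the upstream Dmd start, the downstream Dmd starts hold 3 GC boxes each, and the Sgcb line has no match.

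Dystrophin transcripts were listed in 3 rows, of which only NM_001005246 had counts, at an average log2 CPM of 3.21. Which dystrophin isoform this accession encodes is not annotated in the sources used here. At 3 DPI its log2 fold change was -1.23 in DSM+MM3, -0.40 in DSM3, -0.75 in MM3 and -0.23 in VML3. At 14 DPI it was -0.65 in DSM+MM14, -0.07 in DSM14, -0.19 in MM14 and -0.59 in VML14. All 8 values lay below 0, but with an SE of 0.51 to 0.54 none passed. The furthest from 0, in DSM+MM3, had a 95% interval of -2.33 to -0.12 and an adjusted p of 0.103, and the nearest, in DSM14, had an interval of -1.12 to 0.98. The intervals of Dmd were the widest among the members, and those other than DSM+MM3 included 0.

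Utrophin (Utrn, NM_013070, average log2 CPM 5.61) had estimates above its uninjured level in 6 of 8 comparisons and passed in none. Its log2 fold change at 3 DPI was -0.14 in DSM+MM3, 0.12 in DSM3, 0.34 in MM3 and 0.39 in VML3. At 14 DPI it was 0.41 in DSM+MM14, 0.23 in DSM14, 0.20 in MM14 and -0.28 in VML14. With an SE of 0.26 in each comparison, the 8 intervals together ran from -0.82 to 0.94, so that a rise to 2 times the uninjured level lay outside every interval. The lowest adjusted p was 0.321, in DSM+MM14.

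Dystroglycan (Dag1, NM_053697), the precursor that is cut into the laminin-binding alpha and the membrane-spanning beta subunit, averaged a log2 CPM of 9.16, the highest of the members, on a scale not divided by transcript length. Its log2 fold change stayed between -0.13 and -0.02 in the 4 groups at 3 DPI and was -0.26 in DSM+MM14, -0.05 in DSM14, -0.02 in MM14 and 0.24 in VML14. The SE was 0.20 throughout, and the 8 intervals together covered -0.67 to 0.64. None of the 8 comparisons passed, with adjusted p from 0.416 to 1, and a change to 0.5 or to 2 times the uninjured level lay outside every interval.

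Alpha-sarcoglycan (Sgca, NM_001107039, average log2 CPM 7.92), which is largely restricted to striated muscle, fell in MM3 by 1.15 on the log2 scale (SE 0.36, 95% interval -1.89 to -0.41, adjusted p = 0.0138) and in DSM3 by 1.03 (SE 0.36, adjusted p = 0.0353). These are levels of 0.451 and 0.491 of uninjured muscle, and both changes turn positive when set against mature fibre markers. Its log2 fold change was -0.73 in VML3 (adjusted p = 0.154) and -0.76 in DSM+MM3 (adjusted p = 0.126), so the 4 groups of 3 DPI all lay below 0, although only the repairs with mince alone and scaffold alone passed. At 14 DPI the values were -0.73 in DSM+MM14, -0.38 in DSM14, -0.23 in MM14 and 0.14 in VML14, and none passed.

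Beta-sarcoglycan (Sgcb, NM_001191068, average log2 CPM 8.64), which with the delta subunit makes the core of the sarcoglycan complex, fell in MM3 by 1.26 (SE 0.39, adjusted p = 0.0130) and in DSM+MM3 by 1.21 (SE 0.39, adjusted p = 0.0262), the first of which turns positive and the second shrinks to -0.14 against mature fibre markers. In VML3 its log2 fold change was -0.88 (adjusted p = 0.116) and in DSM3 it was -1.0 (adjusted p = 0.0547), just outside the threshold. At 14 DPI it was -0.88 in DSM+MM14, -0.97 in DSM14, -0.51 in MM14 and -1.04 in VML14, with adjusted p from 0.119 to 0.840. Sgcb was thus below 0 in all 8 comparisons, with the estimates of both days close to each other in each treatment other than MM. Against mature fibre markers it stayed at -0.85 in VML14 and -0.40 in DSM14, and was at -0.06 in MM14 and 0.004 in DSM+MM14.

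Delta-sarcoglycan (Sgcd) had counts in 1 of its 2 rows, NM_001134826, at an average log2 CPM of 0.83, the lowest of the members. At 3 DPI its log2 fold change lay between -0.35 and 0.01 and no comparison passed. At 14 DPI it was -0.35 in VML14, 0.03 in MM14 and -0.17 in DSM14, and in DSM+MM14 it fell by 1.26 (SE 0.37, 95% interval -2.03 to -0.50, adjusted p = 0.0187), to 0.416 of the uninjured level, a fall that shrinks to -0.38 against mature fibre markers. This is the only call among the members at 14 DPI, and it rests on a transcript averaging 1.78 CPM.

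Sarcospan (Sspn, NM_001109255, average log2 CPM 7.38), a small membrane protein held by the sarcoglycans, fell in MM3 by 1.12 (SE 0.38, 95% interval -1.90 to -0.35, adjusted p = 0.0208), a fall that turns positive against mature fibre markers. In VML3 its log2 fold change was -0.68 (adjusted p = 0.211), and DSM+MM3 at -1.01 (adjusted p = 0.0540) and DSM3 at -0.98 (adjusted p = 0.0530) lay just outside the threshold. At 14 DPI the values lay closer to 0, at -0.31 in DSM+MM14, -0.29 in DSM14, 0.10 in MM14 and -0.30 in VML14. The day 14 intervals together ran from -1.06 to 0.85, so a fall to 0.459 of the uninjured level, the value of MM3, lay outside each of them.

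Sntb1 (NM_001130542, average log2 CPM 4.76) encodes a beta-syntrophin, an adaptor bound to dystrophin and utrophin. Its log2 fold change at 3 DPI was -0.83 in DSM+MM3, -0.54 in DSM3, -0.65 in MM3 and -0.78 in VML3. At 14 DPI it was -0.91 in DSM+MM14, -1.04 in DSM14, -0.66 in MM14 and -1.12 in VML14. All 8 values were below 0 with an SE of 0.41, and none passed, with adjusted p from 0.114 to 0.709. Its lowest value was that of unrepaired muscle at 14 DPI, with a 95% interval of -1.97 to -0.28. Against mature fibre markers that value was -0.94, while those of the 4 groups of 3 DPI turned positive.

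**Figure D2:**
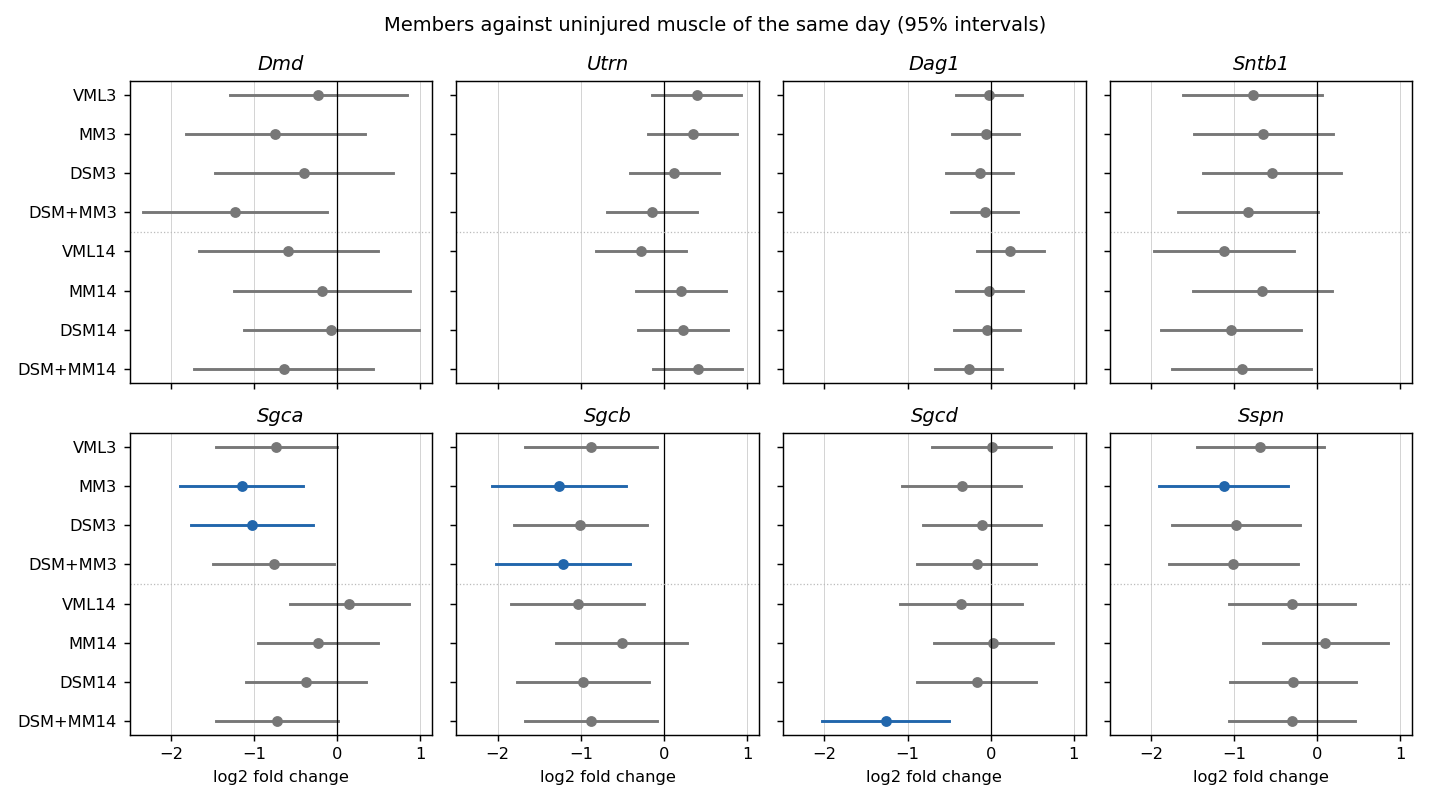
Log2 fold change of each member (1 panel per gene) in each injured group, set against the uninjured muscle of its day. Points are the deposited estimates, bars are 95% intervals, blue marks an adjusted p under 0.05 with a lower level and grey marks values that did not pass. The 6 blue points belong to Sgca, Sgcb, Sgcd and Sspn, and the Dag1 points stay between -0.26 and 0.24. Set against the median of mature fibre markers, Sgca, Sgcb and Sspn in MM3 and Sgca in DSM3 lie above 0.

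Counted by comparison, 3 of 8 members were lower in MM3, against 26.5% of the 10851 rows averaging at least 1 CPM, and 1 of 8 was lower in DSM3, against 15.5% of rows. In DSM+MM3, 1 of 8 was lower against 9.59% of rows, and in DSM+MM14 1 of 8 against 2.99%. In VML3 0 members were lower against 4.16% of rows, and 2 had an unadjusted edgeR p under 0.05. In VML14 0 were lower against 0.147% of rows, with 2 at an unadjusted p under 0.05, in MM14 0 against 0% with 0 unadjusted, and in DSM14 0 against 1.21% with 2 unadjusted. The share of members that fell in MM3 was near that of all rows, and a single member makes up the count elsewhere. Higher levels were called for 0 members in each comparison, where the share of all rows was 25% in DSM+MM3, 27.3% in DSM3, 29.9% in MM3 and 21.5% in VML3. At 14 DPI that share was 22.2% in DSM+MM14, 15.1% in DSM14, 0.829% in VML14 and 0.0184% in MM14. The median member log2 fold change was -0.80 in DSM+MM3, -0.47 in DSM3, -0.70 in MM3 and -0.46 in VML3, while the median of all rows lay between -0.03 and 0.02 in these comparisons. At 14 DPI it was -0.69 in DSM+MM14, -0.23 in DSM14, -0.10 in MM14 and -0.33 in VML14. The median of all rows at that day was 0.13 in VML14, which puts every member value there lower by that amount relative to the median row, and between 0.00 and 0.03 in the other groups.

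Mature fibre markers had lower medians than the members at 3 DPI. Of 18 markers 13 averaged at least 1 CPM, and their median log2 fold change was -1.07 in DSM+MM3, -1.59 in DSM3, -2.29 in MM3 and -1.32 in VML3. In MM3 12 of 13 were lower, against 26.5% of rows averaging at least 1 CPM, and in DSM3 7 of 13, against 15.5%. In DSM+MM3 and VML3 0 markers passed, where 3 and 9 had an unadjusted edgeR p under 0.05. Among them, the fast-fibre actinin Actn3 fell by 2.47 in MM3 and the glycogen phosphorylase Pygm by 2.43. All 8 members lay above this median in VML3, MM3 and DSM3, and 6 of 8 in DSM+MM3. Relative to the fibre-marker median, Sgca was at 1.14, Sgcb at 1.03 and Sspn at 1.17 in MM3, and Sgca at 0.56 in DSM3, so these 4 falls turned into positive values, whereas Sgcb in DSM+MM3 shrank to -0.14 and Sgcd in DSM+MM14 to -0.38. At 14 DPI the fibre-marker median was -0.89 in DSM+MM14, -0.57 in DSM14, -0.45 in MM14 and -0.18 in VML14. By the edgeR test 0 of 13 markers passed in each (0 at an unadjusted p under 0.05). Of the members, 2 of 8 in VML14 and 6 of 8 in each of the other groups lay above that median. Sntb1 lay furthest below it, at -0.94 relative to it in VML14 and -0.47 in DSM14, and Sgcb was at -0.85 and -0.40. These relative values were not tested. Markers of new fibres, such as the cardiac actin Actc1 at 3.59 and the fetal acetylcholine receptor subunit Chrng at 5.22 in MM3, rose at 7 of 9 in VML3, MM3 and DSM3 and 5 of 9 in DSM+MM3. Whether these transcripts came from new or from surviving fibres was not tested. At 14 DPI 8 of 9 new fibre markers rose in DSM14, 4 of 9 in DSM+MM14, 3 of 9 in VML14 and 0 of 9 in MM14, where 8 had an unadjusted edgeR p under 0.05. Higher levels were called for 21.5% to 29.9% of rows averaging at least 1 CPM in the groups of 3 DPI. At 14 DPI that share was 15.1% in DSM14, 22.2% in DSM+MM14, 0.829% in VML14 and 0.0184% in MM14.

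**Figure D3:**
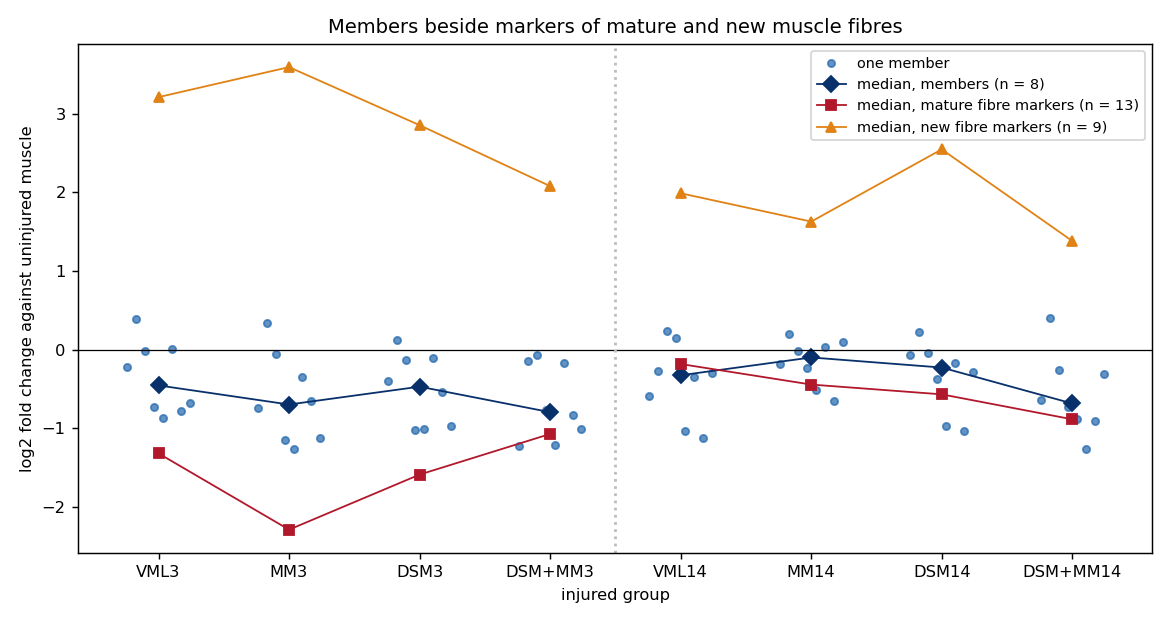
Log2 fold change against uninjured muscle (vertical axis) in the 8 injured groups, with 1 blue point per member, diamonds for the median of the 8 members, squares for the median of 13 mature fibre markers and triangles for the median of 9 new fibre markers. In MM3 the members have a median of -0.70, the mature markers -2.29 and the new fibre markers 3.59.

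Markers of other cell types shifted as well. Macrophage markers rose at 7 of 7 measured genes in each group of 3 DPI, with medians of 4.76 to 5.33, and at 7 of 7 in DSM+MM14 and 6 of 7 in DSM14. Fibroblast markers rose at 6 of 6 in these 6 groups. Of the rows averaging at least 1 CPM, 21.5% to 29.9% were higher in the groups of 3 DPI, 22.2% in DSM+MM14 and 15.1% in DSM14. In VML14 and MM14 0 of either list passed, where the macrophage list had 5 and 6 genes and the fibroblast list 6 and 5 at an unadjusted edgeR p under 0.05. Endothelial markers had medians between -0.23 and 0.37 over the 8 comparisons, with at most 3 of 9 passing. Smooth muscle and pericyte markers had medians between 0.40 and 0.68. In MM3 they ran from -0.65 to 1.91, with Acta2 highest, 2 of 8 below 0 and 4 of 8 called higher. Schwann cell markers ran from -1.70 to 4.07 in MM3 alone, with Mbp highest, and the pan-leukocyte gene Ptprc had no counts in any of its 5 rows. The part of these cells in the member values was not tested.

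Other genes of the complex split in direction. Caveolin 3 (Cav3), the muscle caveolin that binds beta-dystroglycan, fell by 1.13 in MM3 (SE 0.34, adjusted p = 0.0106) and by 0.95 in DSM3, falls smaller than the fibre-marker median of their group, so that relative to that median they too lay above 0. Epsilon-sarcoglycan (Sgce), the widely expressed relative of Sgca, had estimates above 0 in all 8 comparisons and rose by 1.04 in DSM+MM14 (SE 0.26, adjusted p = 0.00644). Sntb2, the broadly expressed beta-syntrophin, rose by 1.22 in VML3, by 1.69 in MM3 (SE 0.40, adjusted p = 0.00230), by 1.12 in DSM3 and by 1.12 in DSM+MM14, from an average of only 2.18 CPM. Neuronal nitric oxide synthase (Nos1), which the complex holds at the membrane, ranged from -1.07 to -0.11 and passed nowhere. Sgcz and Sntg2 averaged below 1 CPM, and Sntg1, Dtna and Dtnb had no row.

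**Figure D4:**
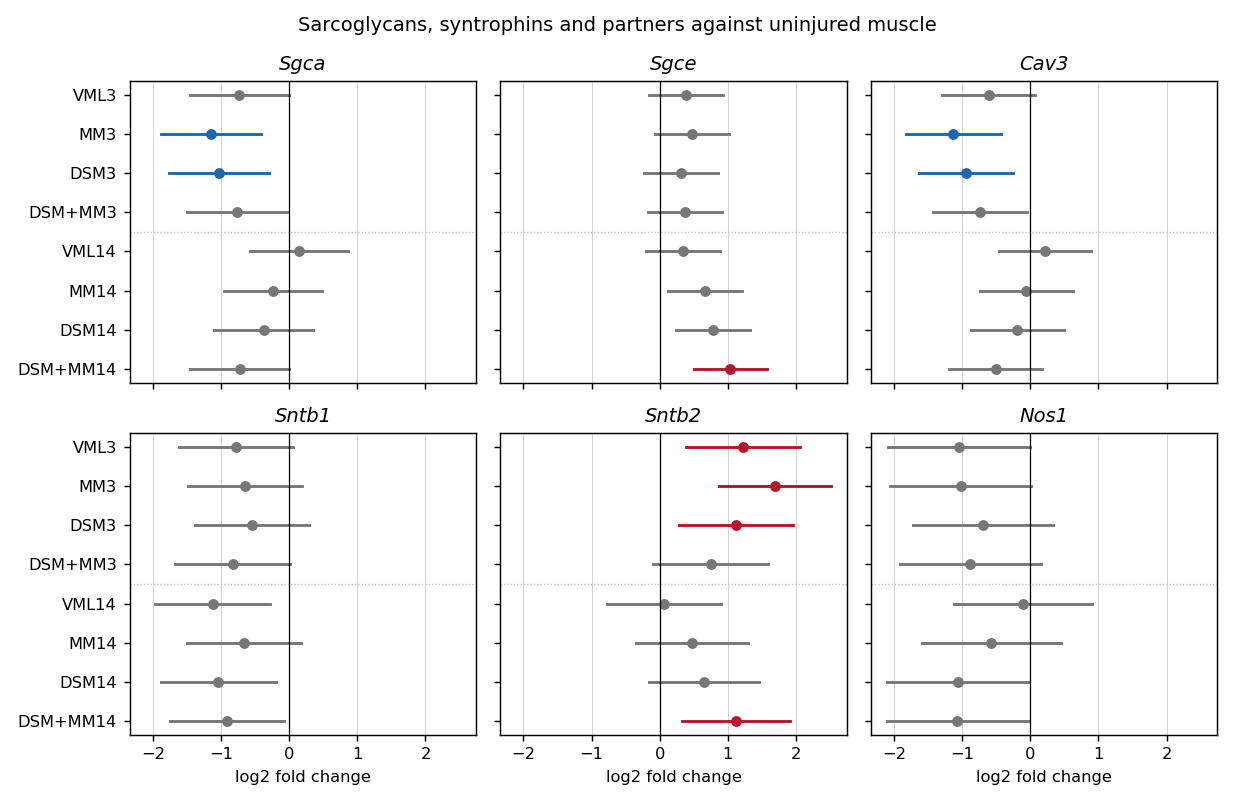
Log2 fold change against uninjured muscle with 95% intervals for a pair of sarcoglycans and Cav3 (top row) and a pair of syntrophins and Nos1 (bottom row). Blue marks lower and red higher levels at an adjusted p under 0.05, and grey marks values that did not pass. Sgca and Cav3 have blue points at 3 DPI only, points that lie above 0 when set against the fibre-marker median, while Sgce is red in DSM+MM14 and Sntb2 is red in 4 groups.

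Alpha-dystroglycan binds laminin through a sugar chain built by a series of enzymes, and these were measured at 16 of 19. In MM3 9 were lower and 2 higher with a median of -0.68, and in DSM3 7 were lower and 2 higher. In DSM+MM3 4 were lower and 2 higher, and in VML3 2 were lower and 2 higher. Among rows averaging at least 1 CPM, 26.5% were lower and 29.9% higher in MM3, and 15.5% and 27.3% in DSM3. These shares were 9.59% and 25% in DSM+MM3, and 4.16% and 21.5% in VML3. At 14 DPI 1 of 16 enzymes was higher, in DSM+MM14, and 0 passed in the other 3 groups by the edgeR test. An unadjusted edgeR p under 0.05 was found for 5 enzymes in VML14, 3 in DSM14 and 0 in MM14. The xylosyltransferase Rxylt1 fell by 0.55 in VML3, by 0.78 in MM3 (SE 0.18, adjusted p = 0.00164), by 0.70 in DSM3 and by 0.62 in DSM+MM3, and B3galnt2, which acts on the same chain, fell by 1.27 in MM3. Relative to the fibre-marker median these falls turned positive, except B3galnt2 in DSM+MM3, which was at -1.08 beside a fibre-marker median of -1.07. Gmppb, which makes the mannose donor, rose by 1.37 in MM3 and passed in all 4 groups of 3 DPI and in DSM+MM14, and Dpm2, a subunit of the mannosyl carrier synthase, rose by 0.55 to 0.58 at 3 DPI.

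Laminin chains and other ligands of dystroglycan were measured at 6 of 10, with 3 higher and 1 lower in MM3 and in DSM3, 3 higher in both groups of combined repair and 2 higher in VML3 and in DSM14. Lama4 rose by 1.71 in MM3 and by 1.74 in DSM+MM14, Lama5 rose by 1.78 in MM3, and Lamc1, the common gamma chain, rose by 0.59 in MM3. Lamb2, the beta chain of the synaptic basement membrane, fell by 0.51 in MM3, which is less than the fibre-marker median fell. Lama2, the chief alpha chain around mature fibres, had no row. Among rows averaging at least 1 CPM, higher levels were called for 29.9% in MM3, 27.3% in DSM3 and 21.5% in VML3. The higher share was 25% in DSM+MM3, 22.2% in DSM+MM14 and 15.1% in DSM14. Lower levels were called for 26.5% of rows in MM3 and 15.5% in DSM3. Costamere and membrane repair genes were measured at 16 of 19, with 7 higher and 3 lower in MM3, 6 higher in DSM3 and in VML3, 4 higher in both groups of combined repair and 3 in DSM14. The annexins that patch membrane wounds rose, with Anxa2 at 3.50, Anxa1 at 2.52 and Anxa5 at 2.38 in MM3. In contrast, Plec, Capn3 and Trim72 fell by 1.99, 1.69 and 1.34 in MM3, again by less than the fibre-marker median. Plec was listed in 11 rows, and the row used for it averaged only 3.0 CPM.

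**Figure D5:**
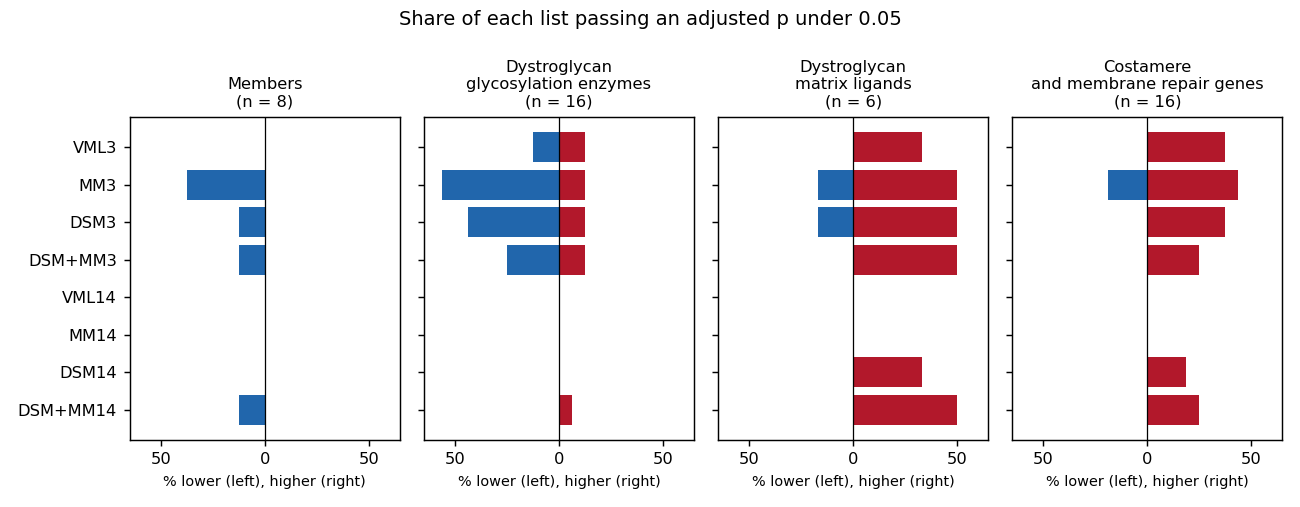
Share of the measured genes of each list that passed an adjusted p under 0.05, with lower levels to the left in blue and higher levels to the right in red, for the 8 injured groups. The members have only blue bars, up to 3 of 8 in MM3, the glycosylation enzymes reach 9 of 16 lower in MM3, and ligands and repair genes are mostly red. Among rows averaging at least 1 CPM, 26.5% were lower and 29.9% higher in MM3. The values called lower for Sgca, Sgcb and Sspn in MM3 and for Sgca in DSM3 turn positive against the fibre-marker median. Those positive values were not tested.

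Whether the repair itself made a difference was asked by comparing injured groups of the same day, in 6 pairs at each of 2 days. By a test of the difference built from the edgeR statistics, 0 of 8 members passed in any of the 12 pairs, and the lowest adjusted p was 0.107. Among all rows, 0% passed in 11 of the pairs, where 92 to 1532 rows had an unadjusted p under 0.05. In DSM+MM14 against VML14 0.0738% passed, where 3492 rows did. The 6 pairs of 3 DPI had 0.848% to 4.41% of rows at an unadjusted p under 0.05 by this test. If no row differed, a share of 0.05 would be expected, so the test may be too strict there. Its 0 calls at 3 DPI therefore do not show that the repairs were alike. The labels give 4 uninjured libraries a day and the study's methods 3 per group, and with the variance share that 3 would imply the rows called over the 12 pairs went from 8 to 1230, while still 0 members passed. At 3 DPI the pairwise differences of Sgca ran from -0.42 to 0.38, of Sgcb from -0.39 to 0.26 and of Sspn from -0.44 to 0.14, while their intervals reached from -1.26 to 1.17. The groups of 3 DPI in which a member passed against uninjured muscle were therefore not shown to differ from those in which it did not.

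At 14 DPI 4 members had an unadjusted p under 0.05 between DSM+MM14 and VML14. DSM+MM14 minus VML14 was 0.68 for Utrn (SE 0.28, 95% interval 0.11 to 1.26, adjusted p = 0.107), and -0.50 for Dag1 (SE 0.21, adjusted p = 0.111). It was -0.87 for Sgca (SE 0.38, adjusted p = 0.121) and -0.91 for Sgcd (SE 0.39, adjusted p = 0.118). None of these 4 passed. Among all rows 32.2% had an unadjusted p under 0.05 in this pair, the highest share of the 12, and the other members ranged from -0.06 for Dmd to 0.21 for Sntb1. Sgcd in DSM+MM14 was also lower by estimate than in MM14, at -1.30 (SE 0.39, 95% interval -2.09 to -0.51, adjusted p = 0.209), and than in DSM14, at -1.10 (SE 0.39, adjusted p = 1.000).

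Combining scaffold and mince was set against the sum of the single repairs by an interaction term, (DSM+MM minus DSM) minus (MM minus VML). None of the 8 members passed at 3 DPI or at 14 DPI. By the test built on edgeR statistics 0% of rows passed, with 140 (1.29%) and 182 (1.68%) at an unadjusted p under 0.05. Both shares lie below the 0.05 expected if no row differed, so this test may be too strict to show an interaction. For Sgcd the term was -1.49 at 14 DPI (SE 0.54, 95% interval -2.59 to -0.38, adjusted p = 1.000), the only member interaction with an interval away from 0.

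Between the days, changes against uninjured muscle of 14 DPI minus those of 3 DPI passed for 0 of 8 members in each of the 4 treatments. Of all rows 0.00922% passed in VML, 0.0645% in MM and 0% in DSM and in DSM+MM. By the same test, 2176 rows (20.1%) in VML and 3250 (30.0%) in MM had an unadjusted p under 0.05. In DSM and DSM+MM 707 and 660 rows did. Sspn in MM had the difference furthest above 0, 1.22 (SE 0.53, 95% interval 0.14 to 2.30, adjusted p = 0.136), as it went from -1.12 to 0.10. Sgca differed by 0.91 in MM (SE 0.50) and by 0.87 in VML (SE 0.50), with intervals that included 0. Sgcb in DSM differed by only 0.03 (SE 0.55), with an interval of -1.10 to 1.16. Sgcd in DSM+MM differed by -1.10 (SE 0.51, adjusted p = 0.793).

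The profile of Dmd over the 8 comparisons was most like that of Slc12a2, a sodium, potassium and chloride cotransporter, by a root mean square difference of 0.13 log2 units, followed by Prss23 at 0.15. The profile of Utrn was nearest to Ddx17 at 0.08, Zfp846 at 0.09 and Zbtb1 at 0.09. These likenesses span 8 comparisons that share 2 sets of uninjured libraries and describe the values only.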

How the data were processed

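RNA of rat tibialis anterior was sequenced on BGISEQ-500 from 32 libraries, and the authors aligned them by STAR to the Rnor_6.0 assembly, took counts for RefSeq transcripts from featureCounts and ran TMM scaling and tests in edgeR. Tool versions are not given in the sources used here. The authors deposited 2 kinds of log2 values, the fold change of an injured group over the uninjured muscle of its day and the average CPM. A score column of the authors gives the F statistic, and their deposited p-values come with a Benjamini-Hochberg adjustment over all 18281 rows, which was recomputed and matched to within 3.82e-14. These columns are the authors' own comparisons, and no column holds a single library (0 were left out as such), so depth per library is unknown and the fold changes are used as the authors' values. Blocks headed MM4 and DSM were read as DSM3 and DSM14, since DSM is the treatment left without a header at each day, and the day of each block follows from 109 to 188 rows with few counts that share a fold change between comparisons of 1 day, against 0 between days.

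Symbols came from RefSeq for 17351 rows, and a gene with several rows was represented by the row of highest average log2 CPM. The SE is the absolute log2 fold change over the square root of F, with denominator degrees of freedom (at most 26.4) solved from F and p, so it covers the spread between libraries as modelled by the authors. Differences between injured groups took out the uninjured share of 0.429 of the variance, were two-sided and were adjusted over rows averaging at least 1 CPM. A simulation of these differences used the same variance share and normally distributed errors. It checks the calculation, and whether those settings hold for these libraries was not tested. Start windows came from RefSeq build GRCr8, which is not the build of the counts, and no position in the counts was read from it. Members and lists were chosen with earlier results of these data known. All members were named, with up to 3 genes per list and direction passing in the most comparisons, and the 3 nearest profiles to Dmd and Utrn among rows averaging at least 10 CPM. Some single genes are not reported here. Alternatives were the call rule, the rows adjusted over, the scaling and the variance share. Python 3.11.15, numpy 2.4.6, scipy 1.17.1 and pandas 2.3.3 were used.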

Additional observations from a re-analysis of the deposited data

How the results depend on the processing

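With an absolute log2 fold change over 1.5 added to the call rule, 0 members were called in MM3, DSM3, DSM+MM3 and DSM+MM14, and a fold change over 1.5 left every count of members as reported. With p-values adjusted over the 10851 rows averaging at least 1 CPM, 3 members were lower in DSM3 and 2 in DSM+MM3, through Sgcb in DSM3 (adjusted p = 0.0351) and Sspn in DSM3 (0.0340) and DSM+MM3 (0.0346), since fewer rows were adjusted over, and the other 61 member values kept their call. Less the median of the mature fibre markers, 4 called falls took a positive sign. These were Sgca at 1.14 in MM3 and 0.56 in DSM3, Sgcb at 1.03 in MM3 and Sspn at 1.17 in MM3. None of these positive values was tested. A further 51 of the 64 member values moved by more than their error. Less the median of all rows, 64 of 64 stayed within it. Between injured groups and between days 0 members passed under every alternative, although the rows called went from 8 to 1230 with an uninjured variance share of 0.5, to 3 over all rows with counts and to 85 over rows averaging at least 10 CPM, and between days from 8 to 9 over all rows with counts. The other rows of Dmd and Sgcd have no counts and gave no value. No paired analysis was possible because only group comparisons were deposited, with no library's own value, and for the same reason leaving out libraries and DESeq2 size factors were not run. Depth per library is unknown, and Sgcd, at 1.78 CPM, is the member with the lowest average.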

Other observations

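Genes listed under several RefSeq transcripts had low values in the table. For the 564 genes with more than 1 row, the best row had a median average log2 CPM of -1.74, against 2.71 for the 15841 genes with 1 row, and 25.4% of them had no counts in any row, against 14.7% of genes with 1 row. The fast troponin T gene Tnnt3, which encodes a thin filament protein of fast fibres, had 13 rows and counts in 0 of them. Among the members, Dmd had counts in 1 of 3 rows and Sgcd in 1 of 2, and these are the genes whose level rests on part of their listed transcripts. How reads on exons shared between transcripts were counted was not tested.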
